A study of Mus musculus with 8 samples.

Results

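Cells sense extracellular nucleotides and adenosine through a small set of surface receptors, and 10 genes of this system known from macrophages were examined. They are the ATP-gated channel genes P2rx4 and P2rx7, the G protein-coupled nucleotide receptor genes P2ry2, P2ry6, P2ry12, P2ry13 and P2ry14, the adenosine receptor genes Adora2a and Adora2b, and Entpd1. The genes were taken by name, as every non-control probe of the array that carries one of these gene names. This gave 14 probes for the 10 genes, out of 55681 probes for 35080 genes in all. Of the 10 genes, 9 were measured well above background on all 8 arrays, and 0 differed between the groups at the threshold used.

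The cells were macrophages differentiated in culture from the bone marrow of male C57BL/6J mice. Macrophages of 4 mice received siRNA against the Y RNA terminal loop or a control siRNA (Ct), giving 4 arrays in each group. Every array therefore holds siRNA-treated cells, and untreated cells were not analysed here. The sources used here give no siRNA sequence, dose or treatment time. Y RNAs are small noncoding RNAs, and the series set out to find genes that respond to the small RNAs derived from them, called s-RNYs. The array carries 0 probes named Rny1 or Rny3, so the loss of the Y RNAs was not checked.

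ATP leaks or is released from stressed and dying cells and is broken down stepwise to ADP, AMP and adenosine outside the cell. ATP opens P2X channels, ATP, ADP and uridine nucleotides act on P2Y receptors, and adenosine acts on receptors that raise or lower cyclic AMP. In macrophages P2X7 is known for setting off the NLRP3 inflammasome and interleukin-1β release, while the receptors encoded by Adora2a and Adora2b are known for restraining inflammatory cytokines.

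Levels are log2 processed fluorescence signals from which the array's own 75th percentile was subtracted. A level of 0 is thus the brightness at that percentile, and levels of different probes are not compared. A difference is the Y RNA siRNA minus the control siRNA, on the log2 scale. Values per array are given in the order of mice 1 to 4. The test is limma across 19259 genes with Benjamini-Hochberg adjustment, and a gene is called at an adjusted p under 0.05. RNA was measured in bulk, so fewer cells that express a gene and less of its RNA per cell cannot be told apart.

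Background was clearly exceeded by 48.7% to 50.7% of the non-control spots per array, and 0 were saturated. All 10 macrophage markers, among them Csf1r, Cd68 and Adgre1 (named Emr1 on the array), were well above background on all 8 arrays. Their summed linear signal, in units of the 75th percentile signal, was 1787 to 2118 with the Y RNA siRNA and 1806 to 2121 with the control siRNA. Platelets and microglia are known for P2ry12. The megakaryocyte and platelet markers Itga2b, Gp9 and Gp6 were above background on 0 of 8 arrays, while Vwf was above it on all 8. Of 6 microglia-enriched genes Sall1 was above background on 0 arrays, and the sums were 137 to 150 with the Y RNA siRNA and 144 to 148 with the control siRNA. The part of such cells in the levels below was not tested.

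The probes decide which transcripts are seen. The labelling kit named in the labels primes from the poly(A) tail, and 5 of the 14 probes contain a hexamer with the letters of a polyadenylation signal, AATAAA or ATTAAA. Either hexamer occurs in 13.7% of all 55681 probes as printed (AATAAA in 10.1%, ATTAAA in 3.95%), and the reverse complement of either in 6.14% of all probes and in 3 of the 14. For each of the 5 probes, 30 bases of the probe are shown 5′ to 3′ with the hexamer in capitals. They are the chosen probes of 4 genes and the probe of Adora2a, the gene without a measurable level.
P2rx4, A_55_P2183015: tgacctaggaccaaacATTAAAgaaaataa
P2ry6, A_51_P105124: gcataagagagaAATAAAtgtgtttttgtg
P2ry14, A_55_P1960197: tatgcatgtgccAATAAAcaagttgtcttc
Adora2a, A_55_P2109382: cccctgagataaAATAAAatgagccacact
Adora2b, A_55_P1993503: cttctcttccacATTAAAgtttattgggac

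P2rx7 and Adora2b have further probes elsewhere in their transcripts, the Adora2b ones starting at transcript positions 643 and 1723. The P2rx7 probes are annotated in the files to transcript variants 1, 2 and 4; whether each is specific to its variant was not tested. The variant 2 probe covers 60 bases of transcript that lie over 2886 bases of genome (chr5:123120528-123123413, mm9, + strand), so it spans a splice junction. It and the Adora2b probe at chr11:62078754-62078813 (mm9, + strand) are shown whole, and the other P2rx7 probes by their first 30 bases. No letters are capitalised because no motif was marked in them.
P2rx7 variant 2, A_51_P506733: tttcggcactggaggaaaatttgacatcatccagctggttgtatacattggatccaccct
P2rx7 variant 1, A_52_P393314, first 30 bases: ttcacttctctctttaaagggaaccatctt
P2rx7 variant 4, A_55_P2183010, first 30 bases: ggtcaaaaagctccccaatccatgcaacaa
Adora2b, A_66_P118906: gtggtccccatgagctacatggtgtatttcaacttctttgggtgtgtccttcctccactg

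The comparison asks whether macrophages change their equipment for sensing nucleotides when the Y RNAs are targeted. Of the 9 members tested, 4 had a higher mean with the Y RNA siRNA and 5 a lower one, and 0 were called in limma. Across all genes 0% were called. At an unadjusted p under 0.05 there were 0 members, against 3.4% of all genes. The median difference of the 9 was -6.4e-05, beside 0.0045 over all genes. For the chosen probe of each of the 9, the 95% interval of the difference stayed within 1.5-fold in either direction. Larger changes in the mean levels of these probes thus lie outside the intervals. That bound does not cover the other kept probes, among them the P2rx7 variant 4 probe with a difference of 0.30 ± 0.26 (SE). The groups overlapped for all 9 members, while they were separate for 2.43% of all genes.

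**Figure D1:**
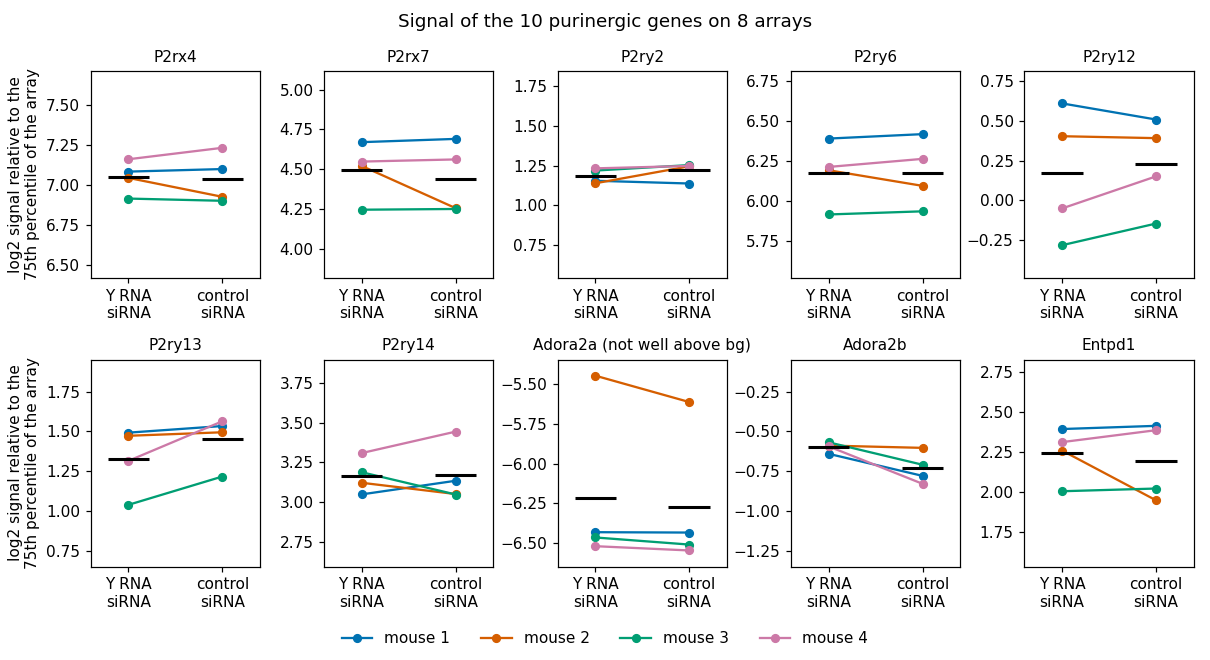
Log2 level, with the array's 75th percentile at 0 (y axis), for the chosen probe of each gene, with the Y RNA siRNA on the left and the control siRNA on the right of each panel. Points are arrays, lines join the arrays of a mouse, bars are means of 4 arrays, and every panel spans the same number of log2 units. The groups overlap in every panel, and Adora2a was not well above background (bg) on any of the 8 arrays.

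P2rx4 encodes the P2X4 channel, which is abundant in lysosomes as well as at the surface. Its chosen probe (chr5:123178983-123179042, + strand) had levels of 7.08, 7.04, 6.91 and 7.16 with the Y RNA siRNA, against 7.10, 6.93, 6.90 and 7.23 with the control siRNA. Both groups covered nearly the same range, and mouse 3 was lowest in each. The difference was 0.011 ± 0.091 (SE) and the adjusted p 1.00. The linear signal was 71230 to 83353 with the Y RNA siRNA and 72246 to 88747 with the control siRNA. The other P2rx4 probe (chr5:123179545-123179604) lies further along the chromosome in the direction of transcription and is annotated to another transcript model. It read 1.77, 1.82, 1.57 and 1.82 with the Y RNA siRNA, against 2.11, 1.79, 1.71 and 2.00 with the control siRNA. It was lower with the Y RNA siRNA in 3 of 4 mice, by -0.16 ± 0.10 (SE), with an adjusted p of 1.00 when every kept probe was fitted separately. The mean of both probes differed by -0.074, so the sign of the P2rx4 difference rests on the choice of probe.

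P2rx7 encodes the P2X7 channel, which opens only at high ATP. The variant 1 probe (chr5:123134194-123134253, + strand) read 4.67, 4.52, 4.25 and 4.55 with the Y RNA siRNA, against 4.69, 4.26, 4.25 and 4.56 with the control siRNA. In mice 1, 3 and 4 the arrays of a mouse nearly coincided, and in mouse 2 the Y RNA siRNA array was 0.26 above its control. The difference was 0.057 ± 0.13 (SE), with an adjusted p of 1.00. Leaving out both arrays of mouse 2 gave -0.013 with the mouse as a fixed block (adjusted p = 0.934).

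The variant 2 probe also had its widest gap in mouse 2, while the variant 4 probe set mouse 1 apart. The variant 2 probe read 0.021, 0.039, -0.24 and 0.15 with the Y RNA siRNA, against 0.057, -0.27, -0.31 and 0.10 with the control siRNA. The variant 4 probe (chr5:123105174-123105233, + strand) read 1.63, 0.59, 0.47 and 0.62 with the Y RNA siRNA, against 0.91, 0.41, 0.43 and 0.37 with the control siRNA. Both arrays of mouse 1 were the highest of their group there, and the Y RNA siRNA was higher in 4 of 4 mice, which 10.4% of all genes were on their chosen probe. The difference of 0.30 ± 0.26 (SE) had an adjusted p of 1.00, and it was 0.030 without the Y RNA siRNA array of mouse 1.

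**Figure D2:**
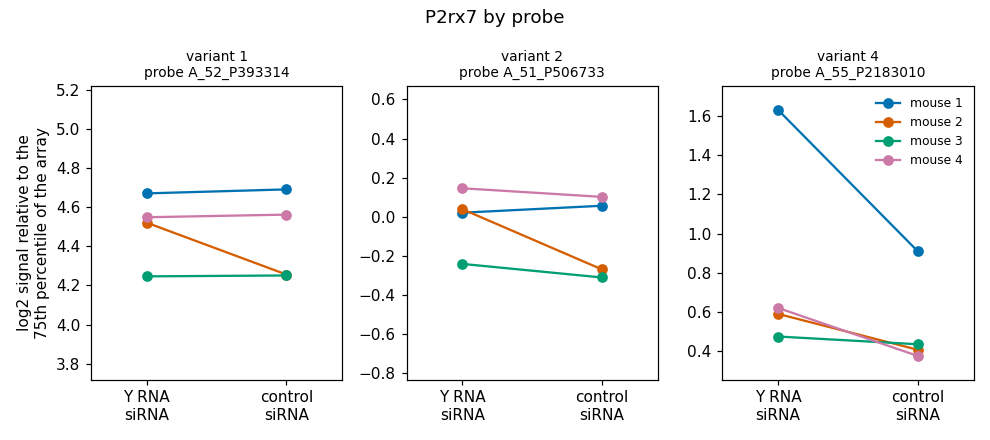
Log2 level, with the array's 75th percentile at 0 (y axis), for the 3 P2rx7 probes, with the Y RNA siRNA on the left and the control siRNA on the right. Points are arrays and lines join the arrays of a mouse. Mouse 2 has the widest gap on the variant 1 and 2 probes, and mouse 1, at 1.63 and 0.91, lies above the other mice on the variant 4 probe.

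P2ry2 and P2ry6 encode receptors that signal through Gq, P2Y2 for ATP and UTP and P2Y6 for UDP; P2Y6 is known for phagocytosis in microglia. P2ry2 (chr7:108145553-108145612, - strand) read 1.16, 1.14, 1.22 and 1.23 with the Y RNA siRNA, against 1.14, 1.25, 1.25 and 1.25 with the control siRNA. These 8 values spanned 0.12, the narrowest range among the 9 members, and the difference was -0.035 ± 0.052 (SE).

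P2ry6 (chr7:108086149-108086208, - strand) is printed 10 times on the array, so the spread between its spots can be given. It read 6.39, 6.19, 5.91 and 6.21 with the Y RNA siRNA, against 6.42, 6.09, 5.93 and 6.26 with the control siRNA. The SD over its spots on an array was 0.044 to 0.074 (1 flagged spot on the control array of mouse 4 was left out). Mouse 1 was highest and mouse 3 lowest in both groups. The difference between the groups was -6.4e-05 ± 0.13 (SE), with a 95% interval of -0.30 to 0.30, in the fit without a block. In the fit blocked by mouse its SE was 0.043.

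P2ry12, P2ry13 and P2ry14 lie within 102 kb of chromosome 3 on the - strand by the probes' positions, and encode Gi-coupled receptors, the first and second for ADP and the third for UDP-glucose. P2ry12 (chr3:59020598-59020657) read 0.61, 0.40, -0.28 and -0.050 with the Y RNA siRNA, against 0.51, 0.39, -0.15 and 0.15 with the control siRNA. Mice 1 and 2 were above mice 3 and 4 in both groups without overlap, with means of 0.48 in mice 1 and 2 and -0.081 in mice 3 and 4. Slide row 1 held the arrays of mice 1 and 2 and slide row 2 the rest, so mouse and slide row cannot be told apart. The siRNA difference was -0.056 ± 0.22 (SE), with an SE of 0.064 in the fit blocked by mouse. It was 0.057 within slide row 1 and -0.17 within slide row 2.

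P2ry13 (chr3:59012054-59012113) read 1.49, 1.47, 1.04 and 1.31 with the Y RNA siRNA, against 1.53, 1.49, 1.22 and 1.56 with the control siRNA. It was lower with the Y RNA siRNA in 4 of 4 mice, with differences of -0.25 to -0.022, which 8.86% of all genes also were. The difference of -0.12 ± 0.12 (SE) had an adjusted p of 1.00, or 0.587 in the fit blocked by mouse. It was -0.032 within slide row 1, -0.21 within slide row 2 and -0.026 without the Y RNA siRNA array of mouse 3.

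P2ry14 (chr3:58918548-58918607) read 3.05, 3.12, 3.19 and 3.31 with the Y RNA siRNA, against 3.14, 3.05, 3.05 and 3.44 with the control siRNA. Mouse 4 was highest in both groups, and 2 mice went up and 2 down. The difference was -0.0025 ± 0.10 (SE).

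Adora2a and Adora2b encode Gs-coupled adenosine receptors, the first with high and the second with low affinity for adenosine. Adora2a (chr10:74797461-74797520, + strand) was well above background on 0 of 8 arrays, and no difference was tested. Its linear signal was 6.09 to 14.4 with the Y RNA siRNA and 6.09 to 13.1 with the control siRNA, where the lowest signal called well above background on an array was 23.2 to 26.7. The single probe thus gives an upper bound only, and says nothing of transcripts it does not match. Both arrays of mouse 2 gave the highest of these readings.

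Adora2b was the member nearest to a call. Its chosen probe (chr11:62079834-62079893, + strand) read -0.64, -0.59, -0.57 and -0.59 with the Y RNA siRNA, against -0.78, -0.60, -0.71 and -0.83 with the control siRNA. It was higher in 4 of 4 mice, although the groups overlapped through the control array of mouse 2. The mean was -0.60 ± 0.031 with the Y RNA siRNA and -0.73 ± 0.098 with the control siRNA (SD, n = 4 each), a 1.10-fold difference with a 95% interval of 0.994 to 1.21-fold. The adjusted p was 1.00 in limma, or 0.535 in the fit blocked by mouse. In the blocked fit Adora2b was the 1 member with an unadjusted value under 0.05, as 9.26% of all genes were. The second probe, shown above, read -2.31, -2.31, -2.31 and -2.47 with the Y RNA siRNA, against -2.23, -2.27, -2.35 and -2.66 with the control siRNA. It was higher in 2 of 4 mice and differed by 0.027 ± 0.10 (SE), so the probes disagreed in mice 1 and 2. The difference on the chosen probe was 0.064 in the authors' deposited value table.

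Entpd1 encodes CD39, the surface enzyme that strips ATP and ADP to AMP. Its probe (chr19:40816008-40816067, + strand) read 2.39, 2.26, 2.00 and 2.31 with the Y RNA siRNA, against 2.41, 1.95, 2.02 and 2.39 with the control siRNA. As with P2rx7, the gap lay in mouse 2, where the Y RNA siRNA array was 0.31 higher, while the other 3 mice had differences of -0.075 to -0.017. The difference was 0.050 ± 0.13 (SE), and -0.037 without both arrays of mouse 2 with the mouse as a fixed block.

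**Figure D3:**
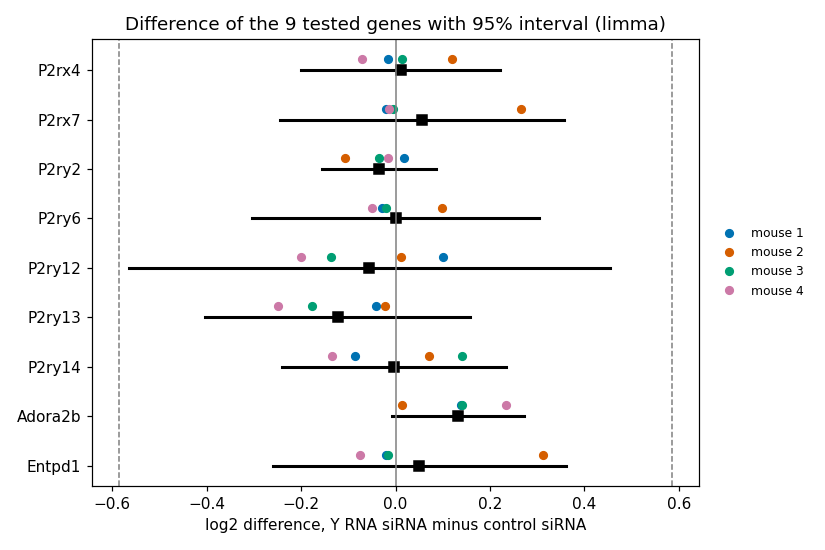
Log2 difference, Y RNA siRNA minus control siRNA (x axis), for the 9 tested genes. Squares are the limma estimates for the chosen probes and black lines their 95% intervals, from the fit without a block for mouse. Coloured points are the differences within each mouse, and dashed lines mark 1.5-fold. Every interval includes 0 and lies inside the dashed lines, and P2ry13 and Adora2b are the genes whose 4 mice fall on 1 side.

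With the mouse as a fixed block 0 of the 9 members and 0% of all genes were called. With the mouse as a random block, at a correlation of 0.533, 0 members were called beside 0.0571% of all genes. Of the 9 members, 1 was higher and 1 lower in all 4 mice. Of all genes 19.3% moved 1 way in all mice.

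For every tested member except Adora2b, the means of the mice spanned more than the difference between the siRNAs. A span over 4 mice, each with fewer arrays than a group, tends to exceed a difference between group means by noise alone. The comparison therefore does not weigh the mice against the siRNA. The means of the 4 mice spanned 0.77 for P2ry12, more than 91.6% of all genes tested, 0.48 for P2ry6 and 0.43 for P2rx7. They spanned 0.39 for Entpd1, 0.39 for P2ry13, 0.29 for P2rx4, 0.29 for P2ry14, 0.12 for Adora2b and 0.094 for P2ry2. P2ry2 lay below most genes in this respect, with 8.92% of genes spanning less. Mouse 3 was lowest for P2rx4, P2rx7, P2ry6, P2ry12, P2ry13 and Entpd1, with deviations of -0.41 to -0.14 from the mean of the gene.

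**Figure D4:**
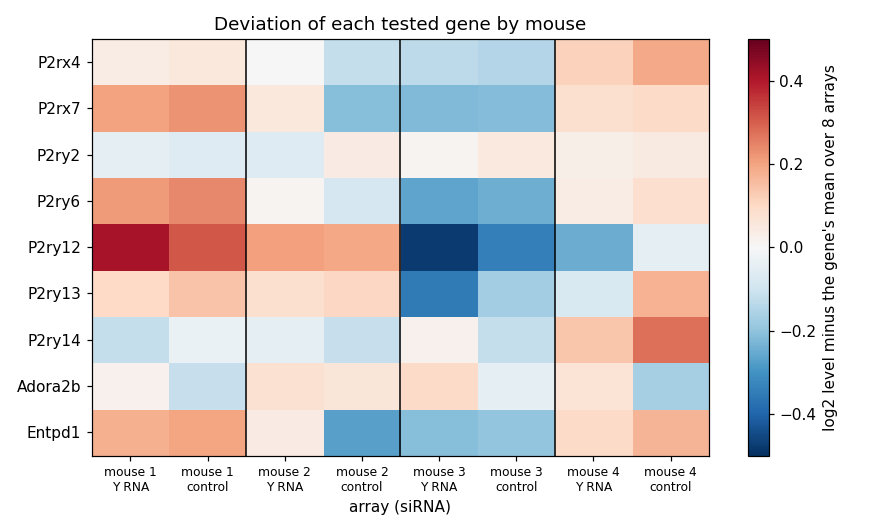
Level of each tested gene minus its own mean over the 8 arrays (colour, log2), with the arrays of a mouse side by side and the Y RNA siRNA left of the control siRNA. P2rx7, P2ry6 and Entpd1 are high in mouse 1 and low in mouse 3, and the control array of mouse 2 is below its partner for all 3.

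Several members followed each other over the arrays. Pearson's r over the 8 arrays was 0.979 between P2rx7 and Entpd1, 0.954 between P2rx7 and P2ry6, and 0.896 between P2ry6 and Entpd1. Neighbours on a chromosome did not all do so. P2rx4 and P2rx7, within 44.9 kb on chromosome 5, had r = 0.817, and P2ry12 and P2ry13, within 8.60 kb, had r = 0.853. P2ry14, in the same cluster, had r = -0.329 with P2ry12 and 0.098 with P2ry13, and P2ry2 and P2ry6, within 59.5 kb on chromosome 7, had r = -0.625. These are descriptions over arrays that share 4 mice, 1 slide and the scaling of each array. Of all genes, those most like P2ry12, the member with the widest range, were the integrin gene Itga9 (r = 0.996), a long intergenic RNA probe without a gene symbol (r = 0.986) and the small GTPase gene Rac3 (r = 0.978).

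Further genes were followed in 8 lists, 103 in all, of which 79 were tested and 0 were called. Of 10 other genes listed by a P2rx, P2ry or Adora name, 5 were tested, with a median difference of 0.11. Such a name does not show what a receptor binds. P2rx2, P2ry4, P2ry10 and Adora1 were above background on 0 arrays. P2ry1, the other ADP receptor, which couples to Gq, ranked first in its list. It read -0.39, 0.21, 0.29 and -0.0023 with the Y RNA siRNA, against 0.20, 0.90, 0.73 and 0.58 with the control siRNA. It was lower in 4 of 4 mice, although the groups overlapped between mice. The difference of -0.57 ± 0.19 (SE) had an adjusted p of 1.00 in limma, 0.203 when mouse was a fixed block and 0.139 when it was random. Adora3, the A3 adenosine receptor, differed by 0.14 ± 0.29 (SE), P2rx1 by 0.11 ± 0.070 (0.053 with normexp), and P2rx5 by 0.72 ± 0.94, the last resting on the control array of mouse 1 at -6.68.

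Enzymes that convert nucleotides and adenosine had 12 of 19 members tested, 8 higher and 4 lower, with a median of 0.077. Nt5e, the CD73 enzyme that completes the conversion of AMP to adenosine, was among the 7 that were not kept. Acpp, a phosphatase that can also hydrolyse AMP, read -2.65, -2.77, -2.48 and -2.78 with the Y RNA siRNA, against -2.83, -3.19, -2.98 and -2.85 with the control siRNA. Its groups did not overlap, as was so for 1.34% of all genes in that direction. The difference of 0.29 ± 0.10 (SE) had an adjusted p of 1.00, and was 0.16 with normexp and 0.17 in the authors' deposited table. The enzyme genes Entpd6 and Entpd7 differed by 0.17 and 0.28, and adenosine deaminase, Ada, by 0.18. Each was higher in 4 of 4 mice and none was called. Entpd7 was at 0.14 with normexp, 0.11 in the authors' deposited table and 0.18 without control replicate 2. Entpd6 was at 0.082 without both arrays of mouse 3, and Ada at 0.086 without control replicate 1 and 0.11 without Y RNA siRNA replicate 3.

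Carriers and channels for ATP and nucleosides had 3 of 8 tested members higher and a median of -0.020, with the nucleoside transporters Slc29a3 at 0.14 (0.081 without control replicate 3) and Slc29a1 at -0.091 (-0.042 without control replicate 4). Effectors downstream of P2X7 were all tested, 5 of 12 higher, with a median of -0.016. The phospholipase gene Pla2g4a differed by 0.17, which was 0.0056 without control replicate 1 and 0.30 without Y RNA siRNA replicate 1. The pore-former gene Gsdmd differed by 0.054, with 0.010 without control replicate 2 and 0.10 without control replicate 1. G proteins, cyclases and phosphodiesterases had 9 of 17 higher and a median of 0.0093. Gnai2, a Gi subunit that P2Y12-type receptors use, read 6.70, 6.58, 6.59 and 6.61 with the Y RNA siRNA, against 6.81, 6.70, 6.70 and 6.70 with the control siRNA. The highest value with the Y RNA siRNA, in mouse 1, lay just below the lowest control value, as in 1.09% of all genes, and the difference was -0.11 ± 0.053 (SE, adjusted p = 1.00). Genes responsive to cyclic AMP split 6 against 6, with the phosphodiesterase gene Pde4d at 0.61 ± 0.32 (SE) and the cytokine gene Il10 at -0.16 ± 0.099 (SE). Y RNA siRNA replicate 3 read -2.03 for Pde4d, above every other array, and the difference was 0.26 without it, 0.28 in the authors' deposited table and 0.33 with normexp. The Il10 difference was -0.091 without control replicate 1. Genes of receptor desensitization had 5 of 13 higher, with Grk5 at 0.12 (0.078 without control replicate 3) and Rgs14 at 0.067 (0.018 without control replicate 1). Around the chromosome 3 receptors, Med12l, the gene in which they are nested in human, differed by -0.082 ± 0.14 (SE) and Gpr171 by 0.11 ± 0.19 (SE).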

How the data were processed

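Intensity values per spot were deposited as scanner files made with Agilent Feature Extraction 10.7.3.1 (design 028005, probe positions on mm9), per the file headers. The headers show spatial detrending of the processed signal, and its 75th percentile differed between arrays (9.04 to 9.34 on the log2 scale). A deposited value table holds the authors' log2 values, of unstated centring (column medians 6.35 to 6.37) and served as an alternative. All 8 arrays lay on 1 slide. The Y RNA siRNA arrays held slide columns 1 and 3 and the control arrays 2 and 4, which confounds column with siRNA. RNA integrity was 10 for 7 samples and 8 for control replicate 4.

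Control and flagged spots were left out, spots of a probe averaged, and a probe was kept if at least 4 of 8 arrays were well above background (26774 of 55681). The probe with the highest mean represented a gene, giving 19259 genes. Accessions were matched to RefSeq GRCm38.p6 for names only (26762 probes). The siRNA difference was fitted with limma 3.58.1 (R 4.3.3, two-sided, Benjamini-Hochberg), without a block. The limma fit without a block was tested on simulated gene levels with independent noise per array and no mouse effect. Spot averaging, the filter, the choice of probe and the blocked fits were not part of that test. The series design ties the replicate numbers to 4 mice, and they were taken to pair the samples. After subtracting group means, same-mouse arrays had correlations of 0.618, 0.155, 0.580 and 0.285. These values do not decide the pairing, because correlations between different mice are not given here. Both arrays of a mouse also lay side by side in a slide row, so mouse and slide position cannot be told apart. P-values set the siRNA difference against the spread between these samples. In the fit without a block that spread includes the differences between the mice. The number of arrays limits the precision.

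The members and the gene lists were chosen with earlier results of these data known. The text names all 10 members with every probe, up to 4 genes with the smallest unadjusted p per list, and the 3 genes most correlated with the member of widest range. Other genes are named for background or as markers. Alternatives covered background correction, normalization, the filter, the probe rule, array weights, blocks for mouse and slide row, and leaving out arrays or mice. One marker of the megakaryocyte and platelet list, and the sum over that list, are not reported here.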

Additional observations from a re-analysis of the deposited data

Results flagged for a closer look

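Within the 4 arrays of a group, 1 array stood apart (Dixon's ratio) on 5 of 26 occasions for the 13 kept probes. Chance alone gives about 1 in 20 for independent groups with normal spread. The probes share arrays and both groups share mice, so the count does not show an excess over chance. The P2rx7 variant 4 probe stood apart in mouse 1 in both groups. It read 1.63 there with the Y RNA siRNA (the others 0.47 to 0.62) and 0.91 with the control siRNA (the others 0.37 to 0.43). The second P2rx4 probe stood apart at 1.57 in Y RNA siRNA replicate 3 (the others 1.77 to 1.82), with a ratio of 0.830, just past the limit. P2ry2 stood apart at 1.14 in control replicate 1 (the others 1.25), within a range narrower than that of any other member. The second Adora2b probe stood apart at -2.47 in Y RNA siRNA replicate 4 (the others -2.31).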

How the results depend on the processing

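All 25 alternatives called 0 members and 0 genes of the 8 lists, and 23 called 0 genes at all. Array weights called 1 gene and the random replicate block 11, none a member, and the fixed replicate block changed no call. Of 225 member values, 185 kept their sign and 40 turned it. Both filter changes, and the blocks for mouse and slide row over all 8 arrays, left every member difference as it was. Their values are among the 185 and could not turn, so the count overstates the stability. P2ry2, P2ry13 and Adora2b kept their sign throughout. P2rx4 was at -0.0104 with quantile normalization, -0.0186 in the deposited table, -0.0736 as the mean of its probes and -0.0290 within slide row 2. P2ry6 was at 0.0294 with median centring, 0.00044 in the deposited table, 0.0724 with array weights and 0.0350 within slide row 1. P2ry14 was at 0.0270 with median centring, 0.0709 with array weights and 0.0025 within slide row 2. Within slide row 1 P2ry12 was at 0.0566, and within slide row 2 P2rx7 was at -0.0090, Entpd1 at -0.0459, P2rx5 at -0.366 and Med12l at 0.10. The second Adora2b probe was at -0.0094 with normexp, -0.0134 with array weights and -0.0625 within slide row 1.

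Leaving out single arrays gave -0.0352 to 0.0757 for P2rx4, -0.0064 to 0.14 for P2rx7, -0.0812 to 0.0876 for P2ry6, -0.20 to 0.0945 for P2ry12, -0.0497 to 0.0888 for P2ry14 and -0.0316 to 0.13 for Entpd1. It gave -0.34 to 1.17 for P2rx5, -0.0647 to 0.37 for Adora3, -0.21 to 0.0329 for Med12l, -0.0226 to 0.23 for Gpr171 and -0.0680 to 0.0773 for the second Adora2b probe. With the mouse as a fixed replicate block and both arrays of mouse 1 left out, P2ry6 was at 0.0092, P2ry14 at 0.0252, P2rx5 at -0.234 and Med12l at 0.0119. Without mouse 2, P2rx4 was at -0.0246, P2rx7 at -0.0128 and Entpd1 at -0.0373. Without mouse 3, P2ry6 was at 0.0065. Without mouse 4, P2ry6 was at 0.0168, P2ry14 at 0.0416 and the second Adora2b probe at -0.0269. The cause of these turns was not tested. The separate values of second probes were added after seeing the data.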

Other observations

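Mouse 1 stood at the edge of both groups for several genes of this system, chosen here after their values were seen. Adora3 read -0.43 with the Y RNA siRNA and -0.46 with the control siRNA in mouse 1, and between -1.44 and -1.03 with the Y RNA siRNA and between -1.57 and -1.29 with the control siRNA in the other mice. P2ry1 was lowest in mouse 1 in both groups, at -0.39 and 0.20. Pla2g4a was also lowest there, at 1.92 with the Y RNA siRNA and 1.63 with the control siRNA, while P2ry6 and P2rx7 were highest there.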
